A study of Mus musculus with 9 samples.

Results

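Integrins are the receptors by which a macrophage holds on to matrix, to other cells and to opsonised particles. Each is a pair of chains, 1 α and 1 β. Described here are the 10 chain genes most often studied in macrophages, namely the α chains Itgam, Itgax, Itgal, Itgav, Itga4 and Itga5 and the β chains Itgb1, Itgb2, Itgb3 and Itgb5. They were taken by symbol from a count table of 53342 genes. A second row with the symbol Itgam held 4 counts over all libraries and was set aside, and the 10 rows used all had enough counts to be tested among 12511 genes.

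The cells were bone-marrow-derived macrophages of wild-type C57BL/6J mice of either sex, aged 8 to 12 weeks, with the marrow of different animals kept apart as biological replicates. In the 3 groups, cells stood for 2 h with Torin-2 (which blocks the mTOR kinase at its ATP site), with rapamycin (which inhibits mTORC1) or with vehicle. Spinal cord homogenate at 1% weight per volume (10 mg per mL) was then added to every group for 24 h, so the vehicle cells were also fed and no unfed group was analysed here. The homogenate, a culture stand-in for the debris that macrophages meet in the injured cord, came from pooled cords of C57BL/6 mice aged 8 to 20 weeks. By the series' design text, Torin-2 lowered lipid droplet accumulation and rapamycin did not, and rapamycin served to account for the mTORC1 part of Torin-2's action. Each group held 3 libraries, 9 in all.

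The chains are grouped here into 3 families by partner. The β2 chain (Itgb2, CD18) is found on leukocytes and pairs with αM (Itgam, CD11b), αX (Itgax, CD11c) or αL (Itgal, CD11a); αMβ2 and αXβ2 are the complement receptors for iC3b, and αLβ2 binds ICAMs. The β1 chain (Itgb1) pairs with many α chains, among them α4 (Itga4), which binds VCAM-1 and fibronectin, and α5 (Itga5), the classical fibronectin receptor. The αv chain (Itgav) pairs with several β chains, β1 among them. Grouped with it here are β3 (Itgb3) and β5 (Itgb5). With these it binds vitronectin, osteopontin and the bridging protein that links macrophages to apoptotic cells. A chain reaches the cell surface only with a partner, so transcript levels of single chains are not levels of the receptors.

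Promoter sequence is shown for 2 pairs of α chains, Itgam with Itgax and Itga4 with Itga5, because the chains of a pair share a β partner and their transcripts differed in pattern. The 250 bases before each gene's RefSeq start are written 5′ to 3′ on the gene's strand (GRCm38.p6), and the 7 members found in RefSeq's promoter table were Itgam, Itgax, Itgav, Itga4, Itga5, Itgb1 and Itgb5. Capitals mark matches, in either orientation, to 4 motifs, and no match overlapped another. The letters searched were GAGGAA for the core of PU.1 motifs, TGTGGT for the core of RUNX motifs, GGGCGG for a GC box and TATAAA for a TATA box, each with its reverse complement. Itgam's window at chr7:128062390-128062639 held 2 PU.1 cores and 1 GC box, while Itgax's at chr7:128129300-128129549 held none of the 4 motifs. Itga4's window at chr2:79255176-79255425 held 1 RUNX core and 1 GC box, and Itga5's at chr15:103366792-103367041, on the minus strand, held 1 PU.1 core and 2 GC boxes. Of the windows not shown, Itgav's held 2 PU.1 cores, Itgb1's 1 PU.1 core and 1 GC box, and Itgb5's 3 GC boxes. A link between these motifs and the transcripts' patterns was not tested. Among all 32851 promoters of this length in the table, 23.3% held the PU.1 core, 14.0% the RUNX core, 32.7% the GC box and 12.4% the TATA box.
Itgam: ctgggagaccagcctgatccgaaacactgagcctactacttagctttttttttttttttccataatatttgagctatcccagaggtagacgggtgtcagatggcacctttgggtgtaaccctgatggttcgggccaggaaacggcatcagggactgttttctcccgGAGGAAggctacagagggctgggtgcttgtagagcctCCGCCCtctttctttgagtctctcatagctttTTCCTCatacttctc
Itgax: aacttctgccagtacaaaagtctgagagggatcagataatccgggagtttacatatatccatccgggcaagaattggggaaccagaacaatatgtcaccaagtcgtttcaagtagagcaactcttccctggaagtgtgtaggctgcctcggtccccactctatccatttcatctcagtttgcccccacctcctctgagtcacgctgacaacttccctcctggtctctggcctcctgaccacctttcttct
Itga4: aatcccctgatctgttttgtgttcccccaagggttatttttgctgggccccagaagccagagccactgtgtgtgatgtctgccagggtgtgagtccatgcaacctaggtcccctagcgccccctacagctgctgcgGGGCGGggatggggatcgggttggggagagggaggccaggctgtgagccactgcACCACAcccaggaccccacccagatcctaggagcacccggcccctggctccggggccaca
Itga5: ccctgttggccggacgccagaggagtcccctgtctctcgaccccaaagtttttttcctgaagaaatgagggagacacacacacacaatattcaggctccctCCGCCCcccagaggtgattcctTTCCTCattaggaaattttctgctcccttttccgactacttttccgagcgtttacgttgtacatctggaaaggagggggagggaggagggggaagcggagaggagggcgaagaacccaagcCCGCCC

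Libraries held 16116666 to 24044329 counts. Levels are given as CPM, counts over the TMM-scaled library size, and levels of different genes are compared only per kilobase of exon. The libraries carried all 10 macrophage markers listed, with summed levels of 15260 to 17064 CPM in Torin-2 cells, 19661 to 21344 CPM in rapamycin cells and 12114 to 16691 CPM in vehicle cells. Most of this was Lyz2, at means of 11711.5, 14931 and 9752 CPM. Of the 10, 4 were higher and 4 lower with Torin-2 against vehicle, and 5 and 4 with rapamycin, at the threshold given below. Over all genes tested the shares were 32.5% and 32.9% with Torin-2, and 24.6% and 26.2% with rapamycin. Lymphocyte markers summed to at most 0.825 CPM and dendritic cell markers to at most 1.54 CPM in any library. In bulk RNA, fewer cells of a type and less RNA per cell cannot be told apart. The 8 oligodendrocyte and myelin markers, mostly Mbp, summed to 366 to 424 CPM in Torin-2 cells, 693 to 847 CPM in rapamycin cells and 481 to 614 CPM in vehicle cells. Whether these reads came from the fed cord or from the macrophages cannot be told apart, and their part in the results below was not tested.

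The 10 integrin genes together made up 3178 to 3290.5 CPM in Torin-2 cells, 3933 to 4501 CPM in rapamycin cells and 2265 to 2410.4 CPM in vehicle cells, and the 3 groups did not overlap. The 10 genes summed therefore took a larger share of counts in both treated groups than in vehicle cells, and the largest in rapamycin cells. Most of this sum was Itgb1 and Itgb2. With Torin-2 the rise of the sum lay in Itgb2 (1098 against 414 CPM in vehicle cells) and Itgb1 (1039 against 773 CPM). The other members together did not rise with Torin-2.

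**Figure D1:**
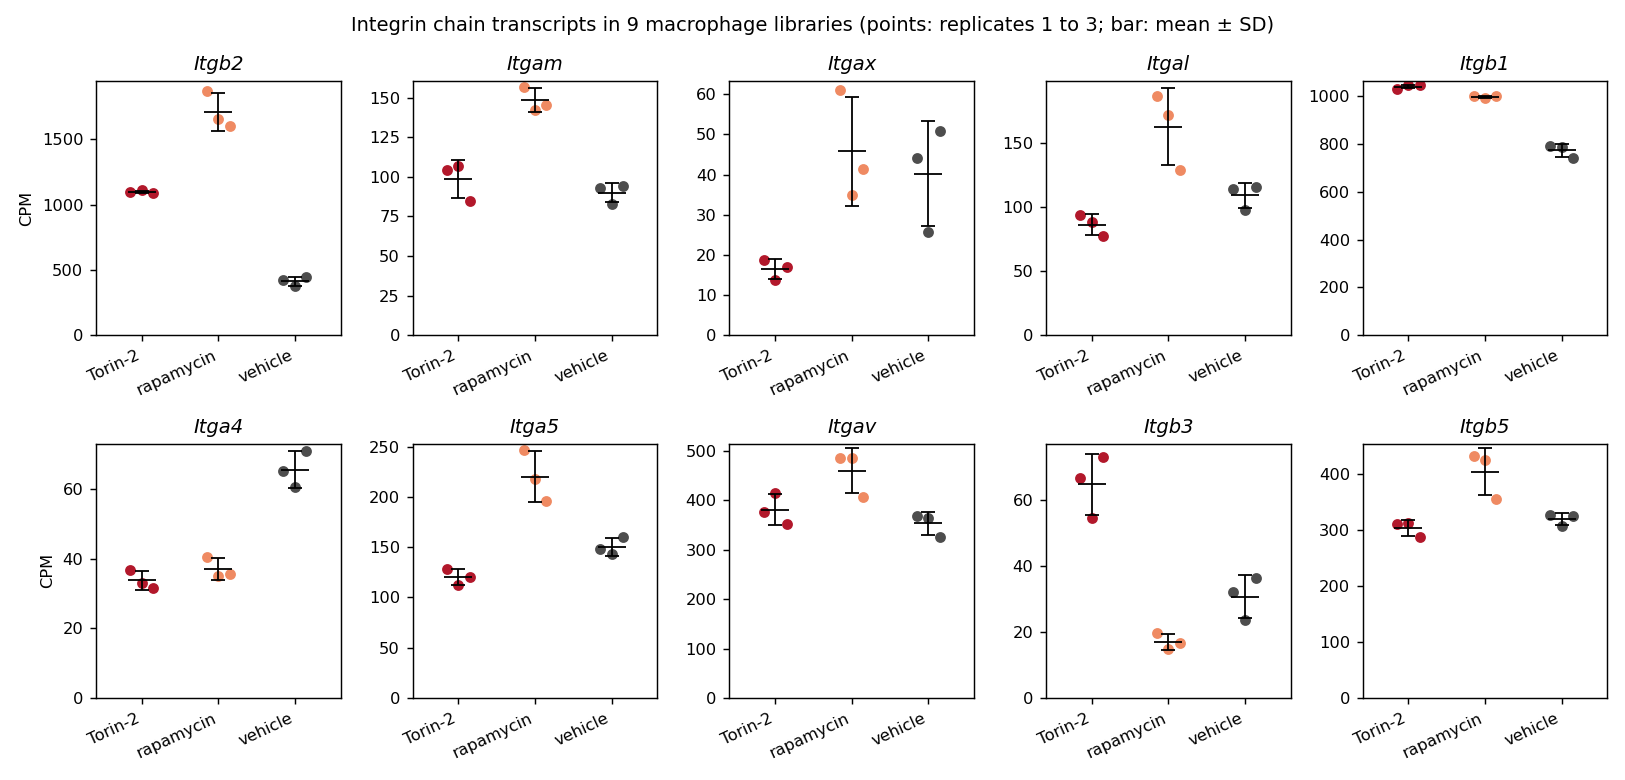
Levels of the 10 integrin genes in CPM (y axes, a scale for each gene, starting at 0) in Torin-2, rapamycin and vehicle cells (x axes), with a point for each library and a bar for the group mean ± SD (n = 3). Itgb2 is high in both treated groups, Itga4 is low in both, and Itgb3 is highest in Torin-2 cells and lowest in rapamycin cells.

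Of the 10 genes, 7 passed in Torin-2 against vehicle cells, of which 3 rose and 4 fell, by edgeR's quasi-likelihood test with Benjamini-Hochberg adjustment over all 12511 genes at a threshold of 0.05. The background in that comparison was 65.4% of all genes tested, with 32.5% higher and 32.9% lower, so the share of integrin genes called was near the background. In rapamycin against vehicle cells 9 of the 10 passed, with 7 higher and 2 lower, against 50.8% of all genes, with 24.6% higher and 26.2% lower. In Torin-2 against rapamycin cells 8 passed, with 1 higher and 7 lower, against 48.2% of all genes, with 24.2% higher and 24.1% lower. Groups did not overlap in 7 of the 10 genes for Torin-2 against vehicle (70.2% of all genes), in 9 for rapamycin against vehicle (57.5%) and in 8 for Torin-2 against rapamycin (57.2%).

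The median log2 fold change of the 10 was 0.02 for Torin-2 against vehicle, 0.37 for rapamycin against vehicle and -0.50 for Torin-2 against rapamycin, beside -0.01, 0.00 and 0.00 over all genes tested. The median size of change, regardless of direction, was 0.38 on the log2 scale for Torin-2 against vehicle, where that of all genes was 0.52. It was 0.56 for rapamycin against vehicle, where that of all genes was 0.35, and 0.61 for Torin-2 against rapamycin, where that of all genes was 0.34. The 3 comparisons share their groups, so each gene's fold changes below are not independent of each other.

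**Figure D2:**
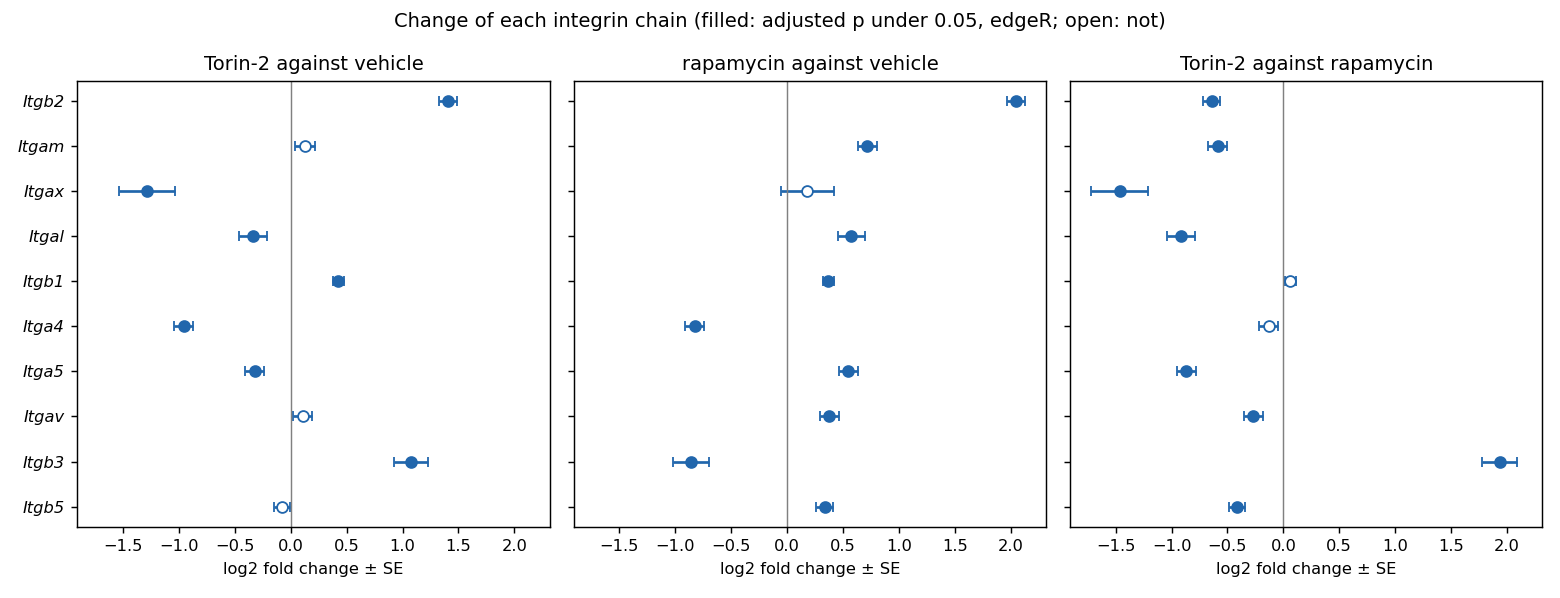
Log2 fold changes with SE of the 10 integrin genes (rows) in the 2 comparisons with vehicle and in Torin-2 against rapamycin (panels), with filled points for genes past an edgeR adjusted p of 0.05 and open points for the others. Itgb2 lies farthest to the right in both comparisons with vehicle, and Itgb3 is the one gene to the right in Torin-2 against rapamycin that passed.

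In the β2 family, the shared β chain rose in both treated groups while its 3 α chains each took a different course. Itgb2 (ENSMUSG00000000290, chr10:77530252-77565708) had 1095, 1110.1 and 1089.6 CPM in Torin-2 cells, 1873, 1653 and 1606 CPM in rapamycin cells, and 425, 374 and 444 CPM in vehicle cells. No group overlapped another, and the Torin-2 libraries lay between those of the other two groups. Against vehicle, Itgb2 was 2.65-fold higher with Torin-2 (log2 fold change 1.41 ± 0.08 SE, edgeR adjusted p = 2.06e-08) and 4.13-fold higher with rapamycin (2.05 ± 0.08, edgeR adjusted p = 1.35e-08). The rise with rapamycin ranked 57 from the top among the 12511 genes and that with Torin-2 ranked 669. Torin-2 cells were below rapamycin cells by a log2 fold change of -0.64 ± 0.08 (edgeR adjusted p = 3.03e-05).

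Itgam (ENSMUSG00000030786, chr7:128062640-128118491), the αM chain and a common marker of myeloid cells, had 104, 107 and 84.8 CPM in Torin-2 cells, 157, 142 and 145 CPM in rapamycin cells, and 93.2, 82.9 and 94.1 CPM in vehicle cells. The rapamycin libraries stood above all others, and Torin-2 and vehicle libraries overlapped. Itgam rose with rapamycin against vehicle (log2 fold change 0.72 ± 0.09, edgeR adjusted p = 4.06e-05) and was lower with Torin-2 than with rapamycin (-0.59 ± 0.09, edgeR adjusted p = 0.000169). Torin-2 against vehicle gave 0.13 ± 0.09 (edgeR adjusted p = 0.212), but without Torin-2 replicate 3, the lowest of its group, 0.23 with an edgeR adjusted p of 0.018. Of Itgam's 5024 bp of exon, 3450 bp are shared on the same strand with the annotated gene Gm49368, which is the row with 4 counts. How the authors' counting treated reads in shared exons is not given in the sources used here, so Itgam's level may be understated.

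Itgax (ENSMUSG00000030789, chr7:128129547-128150657), the αX chain and a marker of dendritic cells and of some macrophages, had 18.8, 13.8 and 16.9 CPM in Torin-2 cells, 61.0, 35.0 and 41.4 CPM in rapamycin cells, and 44.2, 25.6 and 50.9 CPM in vehicle cells. Every Torin-2 library was below every other library, and replicate 2 was the lowest of each group. Itgax fell with Torin-2 against vehicle (log2 fold change -1.29 ± 0.25, edgeR adjusted p = 0.000699) and against rapamycin (-1.46 ± 0.25, edgeR adjusted p = 0.000492). These were the largest decreases among the 10 genes in those comparisons. Rapamycin and vehicle libraries overlapped (0.18 ± 0.24, edgeR adjusted p = 0.558), and the sign of that value turned without rapamycin replicate 1 or without vehicle replicate 2. The dendritic cell markers Ccr7, Cd209a, Klrd1 and Xcr1 were at 0 in all 9 libraries.

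Itgal (ENSMUSG00000030830, chr7:127296260-127335138), the αL chain of LFA-1, had 93.8, 88.3 and 77.3 CPM in Torin-2 cells, 187, 172 and 129 CPM in rapamycin cells, and 114, 97.5 and 116 CPM in vehicle cells. The groups were ordered Torin-2, vehicle, rapamycin from low to high with no overlap. Itgal rose with rapamycin against vehicle (log2 fold change 0.58 ± 0.12, edgeR adjusted p = 0.00215) and was lower with Torin-2 than with rapamycin (-0.91 ± 0.12, edgeR adjusted p = 8.85e-05). It fell with Torin-2 against vehicle (-0.34 ± 0.12, edgeR adjusted p = 0.0309), but that call was lost on leaving out any of 4 libraries. The edgeR adjusted p was then 0.057 without Torin-2 replicate 2, 0.122 without Torin-2 replicate 3, 0.0904 without vehicle replicate 1 and 0.0765 without vehicle replicate 3.

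Because β2 and its α chains moved unequally, the balance between them differed by group. Itgb2 over the sum of Itgam, Itgax and Itgal, all per kilobase, was 9.21, 9.67 and 11.1 in Torin-2 cells, 8.48, 8.76 and 9.19 in rapamycin cells, and 3.08, 3.34 and 3.10 in vehicle cells. The treated libraries all exceeded the vehicle libraries, and Torin-2 replicate 1 exceeded every rapamycin library by little (9.21 against at most 9.19). This ratio was chosen after its values were seen and has no test. With only the 1574 bp of Itgam exon that Gm49368 does not share, it was 4.58 ± 0.51 in Torin-2 cells, 4.36 ± 0.00567 in rapamycin cells and 1.65 ± 0.0309 in vehicle cells (SD, n = 3 each). The Torin-2 libraries then had 4.25, 4.32 and 5.16 and the rapamycin libraries 4.36, 4.37 and 4.36. Only Torin-2 replicate 3 thus exceeded the rapamycin libraries, and Torin-2 replicates 1 and 2 lay below them.

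Within the α chains, Itgax gave 7.65% to 10.96% of the summed per-kilobase level of the 3 in Torin-2 cells, 11.8% to 17.5% in rapamycin cells and 14.5% to 22.6% in vehicle cells. Itgam gave 52.5% to 56.6% in Torin-2 cells, 43.1% to 50.6% in rapamycin cells and 39.9% to 45.0% in vehicle cells. Each Torin-2 library thus had a smaller αX share and a larger αM share than every rapamycin or vehicle library. With only Itgam's unshared exon, the Itgax share was 3.41% to 5.10% in Torin-2 cells, 5.88% to 9.02% in rapamycin cells and 7.32% to 12.0% in vehicle cells. Itgam's share was then 77.9% to 80.6% in Torin-2 cells, 70.8% to 76.5% in rapamycin cells and 67.9% to 72.3% in vehicle cells. Markers of neutrophils, which also carry αMβ2, summed to 230 to 261 CPM in Torin-2 cells, 42.5 to 57.2 CPM in rapamycin cells and 20.2 to 23.7 CPM in vehicle cells. Of the 12 listed, 3 had enough counts to be tested, and most of the sum was Mmp8 and Csf3r. In Torin-2, rapamycin and vehicle cells Mmp8 averaged 201 ± 14.2, 22.5 ± 7.09 and 8.06 ± 0.722 CPM, and Csf3r 46.5 ± 3.31, 21.3 ± 0.662 and 11.2 ± 2.18 CPM. Against vehicle, Mmp8 rose with Torin-2 (log2 fold change 4.64, edgeR adjusted p = 1.59e-09) and with rapamycin (1.46, edgeR adjusted p = 4.85e-05). So did Csf3r (2.05, edgeR adjusted p = 3.20e-08, and 0.92, edgeR adjusted p = 6.99e-05). The third, S100a8, averaged 1.80 ± 0.525 CPM in Torin-2 cells, 4.16 ± 0.961 CPM in rapamycin cells and 3.25 ± 0.367 CPM in vehicle cells. It was lowest where the sum was highest, and lower with Torin-2 than with vehicle (log2 fold change -0.86, edgeR adjusted p = 0.0106) and than with rapamycin (-1.21, edgeR adjusted p = 0.002). Of the listed markers not tested, Ly6g, Mpo, Retnlg and S100a9 were at 0 in all libraries. The part of the neutrophil markers in the values of the β2 family was not tested.

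In the β1 family, Itgb1 varied little within groups and rose in both treated groups. Itgb1 (ENSMUSG00000025809, chr8:128685654-128733200) had 1031, 1044 and 1044 CPM in Torin-2 cells, 999, 992 and 1000.3 CPM in rapamycin cells, and 793, 785 and 742 CPM in vehicle cells. The log2 fold change against vehicle was 0.43 ± 0.05 with Torin-2 (edgeR adjusted p = 1.12e-05) and 0.37 ± 0.05 with rapamycin (edgeR adjusted p = 8.98e-05). All Torin-2 libraries stood above all rapamycin libraries, yet the difference of 0.06 ± 0.05 did not pass (edgeR adjusted p = 0.346).

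Itga4 (ENSMUSG00000027009, chr2:79255426-79333123), the α chain of VLA-4, had 36.8, 33.0 and 31.6 CPM in Torin-2 cells, 40.5, 35.0 and 35.6 CPM in rapamycin cells, and 65.1, 60.7 and 71.0 CPM in vehicle cells. The treated groups overlapped each other, and both lay below vehicle. Itga4 fell with Torin-2 (log2 fold change -0.96 ± 0.08, edgeR adjusted p = 1.06e-06) and with rapamycin (-0.83 ± 0.08, edgeR adjusted p = 1.18e-05), and Torin-2 against rapamycin gave -0.13 ± 0.09 (edgeR adjusted p = 0.232). It shares 1124 bp of its 13978 bp of exon with Cerkl on the opposite strand, which averaged 0.925 CPM.

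Itga5 (ENSMUSG00000000555, chr15:103344286-103366763) went the opposite way to Itga4 with rapamycin. It had 129, 112 and 120.4 CPM in Torin-2 cells, 246, 218 and 196 CPM in rapamycin cells, and 148, 143 and 160.4 CPM in vehicle cells, with no overlap between groups. It rose with rapamycin against vehicle (log2 fold change 0.55 ± 0.08, edgeR adjusted p = 0.000218), fell with Torin-2 against vehicle (-0.32 ± 0.08, edgeR adjusted p = 0.0051) and was lower with Torin-2 than with rapamycin (-0.87 ± 0.08, edgeR adjusted p = 7.01e-06). Fibroblast markers summed to 9.79, 8.40 and 3.16 CPM in Torin-2 cells, 83.3, 58.9 and 13.9 CPM in rapamycin cells, and 40.3, 29.6 and 10.1 CPM in vehicle cells, lowest in replicate 3 of each group. Without replicate 3 of every group, no call of Itga5, Itga4 or Itgb1 changed, but the libraries kept had the higher fibroblast marker sums. Itga5 itself was lowest in replicate 3 only in rapamycin cells. The part of these markers in Itga5's values was not tested.

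Itgb1 over the sum of Itga4 and Itga5, per kilobase, was 8.80, 10.2 and 9.59 in Torin-2 cells, 4.64, 5.21 and 5.80 in rapamycin cells, and 5.59, 5.78 and 4.84 in vehicle cells. Torin-2 libraries were above all others, while rapamycin and vehicle libraries overlapped. This ratio, too, was chosen after its values were seen. Its denominator leaves out other α chains, among them Itga9 and Itgav, which also pair with β1, and Itga6. In Torin-2, rapamycin and vehicle cells Itga9 averaged 2.70, 6.74 and 7.70 CPM per kb, Itgav 35.4, 42.7 and 32.8, and Itga6 23.1, 28.9 and 30.3.

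In the αv family, the α chain and β5 moved little and β3 moved most. Itgav (ENSMUSG00000027087, chr2:83724397-83806916) had 375, 415 and 352 CPM in Torin-2 cells, 485, 486 and 406 CPM in rapamycin cells, and 369, 364 and 326 CPM in vehicle cells. Replicate 3 was the lowest of each group, as for the fibroblast markers given above, whose part in Itgav's values was not tested. It rose with rapamycin against vehicle (log2 fold change 0.38 ± 0.08, edgeR adjusted p = 0.00282), and Torin-2 against vehicle gave 0.11 ± 0.08 (edgeR adjusted p = 0.276). Torin-2 against rapamycin gave -0.27 ± 0.08 (edgeR adjusted p = 0.02), but Torin-2 replicate 2 exceeded rapamycin replicate 3. That call was lost with library totals as the only scaling (edgeR adjusted p = 0.0872) and without Torin-2 replicate 1 (0.0627), Torin-2 replicate 3 (0.0835), rapamycin replicate 1 (0.0721) or rapamycin replicate 2 (0.0727).

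Itgb5 (ENSMUSG00000022817, chr16:33829665-33949338) had 311, 313 and 288 CPM in Torin-2 cells, 433, 425 and 356 CPM in rapamycin cells, and 328, 308 and 326 CPM in vehicle cells. The rapamycin libraries stood above the rest, and Torin-2 and vehicle libraries overlapped. Itgb5 rose with rapamycin against vehicle (log2 fold change 0.34 ± 0.07, edgeR adjusted p = 0.00246) and was lower with Torin-2 than with rapamycin (-0.41 ± 0.07, edgeR adjusted p = 0.00064). Torin-2 against vehicle gave -0.08 ± 0.07 (edgeR adjusted p = 0.378).

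Itgb3 (ENSMUSG00000020689, chr11:104608000-104670476), the chain that αv uses on osteoclasts and that platelets use with αIIb, had 66.8, 54.6 and 72.9 CPM in Torin-2 cells, 19.6, 14.8 and 16.8 CPM in rapamycin cells, and 32.1, 23.7 and 36.4 CPM in vehicle cells. The compounds moved it in opposite directions from vehicle, with no overlap between any groups. It was 2.11-fold higher with Torin-2 than with vehicle (log2 fold change 1.08 ± 0.15, edgeR adjusted p = 5.36e-05), fell with rapamycin against vehicle (-0.86 ± 0.16, edgeR adjusted p = 0.00093), and was 3.82-fold higher with Torin-2 than with rapamycin (1.93 ± 0.16, edgeR adjusted p = 2.21e-06). The last was the rise ranked 133 among the 12511 genes. Itgb3 was the one member whose changes against vehicle passed in both comparisons with a rise under Torin-2 and a fall under rapamycin.

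Of the summed per-kilobase level of Itgb3 and Itgb5, Itgb3 made up 11.4%, 9.52% and 13.2% in Torin-2 cells, 2.65%, 2.06% and 2.76% in rapamycin cells, and 5.57%, 4.43% and 6.30% in vehicle cells. Other β partners of αv, such as Itgb1, are not in this sum. Osteoclast markers summed to 1098 to 1114 CPM in Torin-2 cells, 365 to 486 CPM in rapamycin cells and 423 to 582 CPM in vehicle cells. Most of that was Atp6v0d2, at a mean of 958 CPM in Torin-2 cells, 330.3 CPM in rapamycin cells and 413 CPM in vehicle cells, and the osteoclast markers Calcr and Oscar were at 0 in all libraries. Of the 6 tested, 4 were higher and 1 lower in Torin-2 against vehicle, 3 were higher and 2 lower in rapamycin against vehicle, and 3 were higher and 2 lower in Torin-2 against rapamycin. Shares over all genes tested were 32.5% higher and 32.9% lower, 24.6% and 26.2%, and 24.2% and 24.1%, in that order. Acp5 had its lowest level where Itgb3 had its highest, at 6.52 ± 1.80 CPM in Torin-2 cells, 12.9 ± 1.71 CPM in rapamycin cells and 25.5 ± 6.37 CPM in vehicle cells, and fell with Torin-2 against vehicle (log2 fold change -1.95, edgeR adjusted p = 5.90e-06). Ocstamp averaged 0.0712 CPM in Torin-2 cells, 2.497 CPM in rapamycin cells and 0.136 CPM in vehicle cells, highest where Itgb3 was lowest. Ctsk had the order of Itgb3, at 55.5 ± 4.46, 26.8 ± 1.90 and 36.4 ± 2.88 CPM in Torin-2, rapamycin and vehicle cells. Against vehicle it rose with Torin-2 (0.61, edgeR adjusted p = 4.44e-05) and fell with rapamycin (-0.44, edgeR adjusted p = 0.00119). Mmp9 and Nfatc1 rose with both compounds against vehicle. Platelet and megakaryocyte markers, nearly all Pf4, summed to 25.1 to 27.7 CPM in Torin-2 cells, 58.4 to 73.5 CPM in rapamycin cells and 103 to 132 CPM in vehicle cells, with Gp1ba, Gp6 and Gp9 at 0. The part of either list in Itgb3's values was not tested.

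Per kilobase of exon, Itgb2 stood first of the 10 genes in both treated groups, at 359.8 ± 3.49 CPM per kb in Torin-2 cells and 560.5 ± 46.6 in rapamycin cells, and Itgb1 second, at 255 ± 1.87 and 244 ± 1.11 (SD, n = 3 each). In vehicle cells that order was turned, with Itgb1 at 189 ± 6.65 and Itgb2 at 136 ± 11.7. Itgb5 came next in every group, at 85.5 ± 3.86 in Torin-2 cells, 114 ± 11.9 in rapamycin cells and 90.2 ± 3.05 in vehicle cells. Among the α chains, Itgav (35.4 ± 2.95), Itga5 (24.4 ± 1.66) and Itgam (19.6 ± 2.41) followed in Torin-2 cells, and none of these overlapped its neighbour. In rapamycin cells Itga5 (44.6 ± 5.12) and Itgav (42.7 ± 4.26) overlapped, as did Itgam (29.5 ± 1.50) and Itgal (24.8 ± 4.55). In vehicle cells Itgav (32.8 ± 2.17) overlapped Itga5 (30.5 ± 1.82), and Itgam (17.9 ± 1.24) overlapped Itgal (16.6 ± 1.54).

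At the low end, Itga4 was last in all 3 groups, at 2.42 ± 0.191 CPM per kb in Torin-2 cells, 2.65 ± 0.217 in rapamycin cells and 4.69 ± 0.371 in vehicle cells. In rapamycin cells it overlapped Itgb3 (2.89 ± 0.404), and in vehicle cells Itgb3 (5.21 ± 1.09) overlapped both Itga4 and Itgax (8.38 ± 2.72). In Torin-2 cells Itgb3 (10.98 ± 1.58) instead overlapped Itgal (13.2 ± 1.28), above Itgax (3.44 ± 0.521). On its unshared exon length Itgam would stand higher, at 62.7 ± 7.69 CPM per kb in Torin-2 cells, 94.2 ± 4.79 in rapamycin cells and 57.2 ± 3.94 in vehicle cells.

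**Figure D3:**
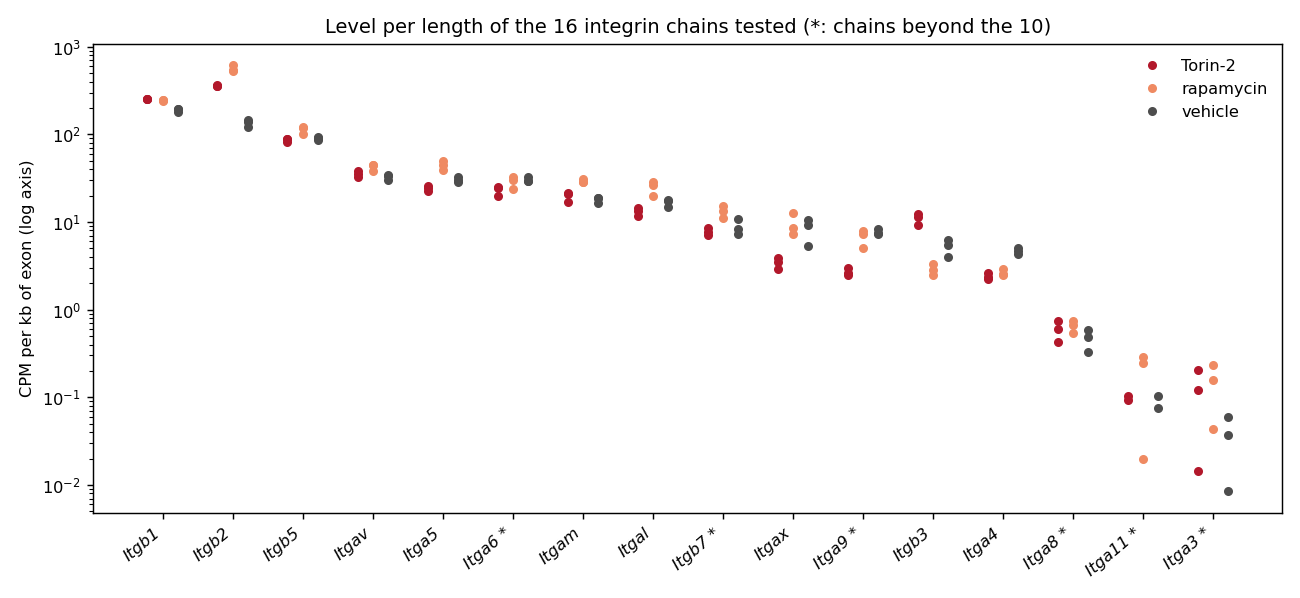
Levels of the integrin chains with enough counts to be tested, in CPM per kilobase of exon (log axis), with a point for each library of Torin-2, rapamycin and vehicle cells and an asterisk at chains beyond the 10. The 2 Itga11 libraries at 0, Torin-2 replicate 3 and vehicle replicate 3, cannot be drawn on this axis, and Itgb1, Itgb2 and Itgb5 stand above every other chain in all groups.

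Ratios of chains that share or compete for a partner do not depend on how libraries are scaled. With 3 libraries against 3, the 2-sided exact permutation test cannot give a p below 0.1, so none of the 12 ratio comparisons could pass 0.05, and adjustment over the 12 gives at least 0.133. The test also takes no account of the pairing of libraries by replicate number. Itgb3 to Itgb5, as the log2 ratio of counts, was -2.24 ± 0.27 in Torin-2 cells, -4.57 ± 0.24 in rapamycin cells and -3.40 ± 0.27 in vehicle cells (SD, n = 3 each). All 3 differences (1.16 for Torin-2 against vehicle, -1.17 for rapamycin against vehicle, 2.33 for Torin-2 against rapamycin) reached that smallest exact permutation p of 0.1. Itga4 to Itga5 was -1.83 ± 0.08 in Torin-2 cells, -2.57 ± 0.10 in rapamycin cells and -1.20 ± 0.03 in vehicle cells. Its differences were -0.63 for Torin-2 against vehicle, -1.37 for rapamycin against vehicle and 0.73 for Torin-2 against rapamycin, each with an exact permutation p of 0.1.

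Itgax to Itgam was -2.58 ± 0.33 in Torin-2 cells, -1.73 ± 0.34 in rapamycin cells and -1.22 ± 0.42 in vehicle cells. Torin-2 cells were lower by -1.36 against vehicle and -0.85 against rapamycin, with no overlap and an exact permutation p of 0.1 for each. Rapamycin and vehicle libraries overlapped in this ratio (difference -0.51, exact permutation p = 0.2, adjusted 0.24). Itgal to Itgam was -0.19 ± 0.08 in Torin-2 cells, 0.12 ± 0.25 in rapamycin cells and 0.27 ± 0.04 in vehicle cells. It differed without overlap only in Torin-2 against vehicle (-0.46, exact permutation p = 0.1), while rapamycin against vehicle gave -0.16 and Torin-2 against rapamycin -0.31, each with an exact permutation p of 0.3.

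**Figure D4:**
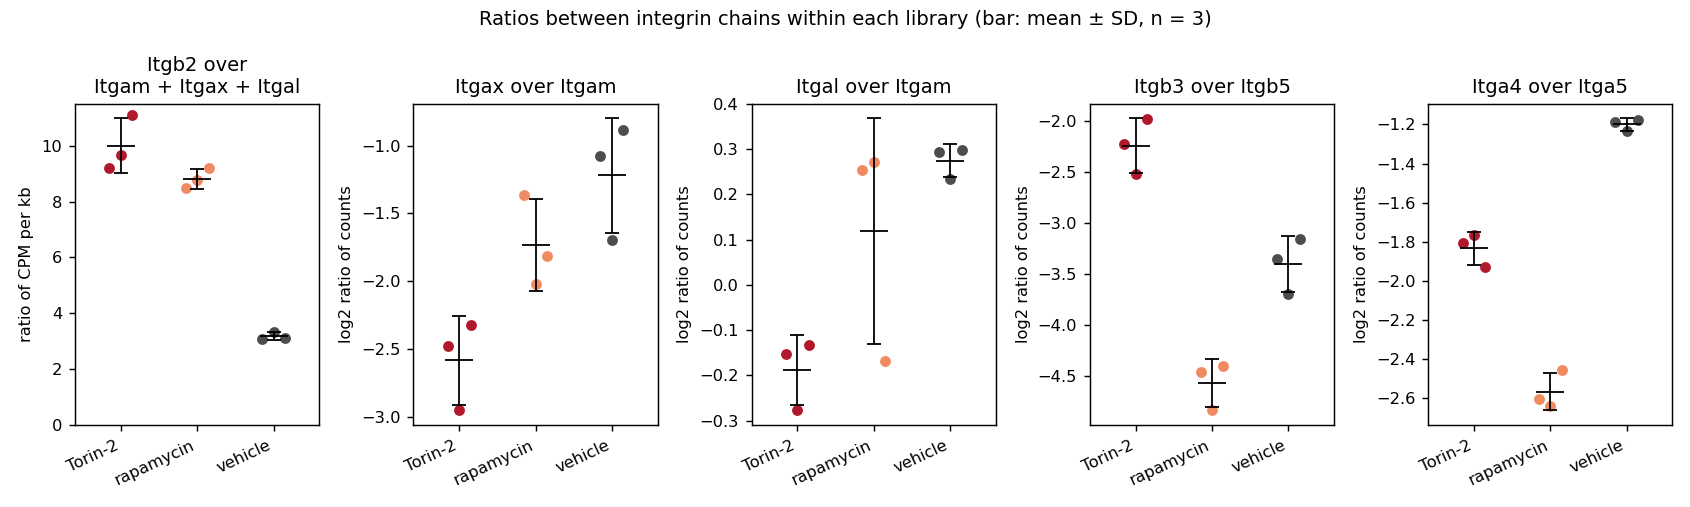
Ratio of Itgb2 to its α chains in CPM per kilobase (left panel, linear axis from 0) and log2 ratios of the counts of 2 chains within each library (other y axes) for Itgax to Itgam, Itgal to Itgam, Itgb3 to Itgb5 and Itga4 to Itga5 in Torin-2, rapamycin and vehicle cells (x axes), with the mean ± SD of 3 libraries. Itgb3 to Itgb5 is highest in Torin-2 cells and lowest in rapamycin cells, and Itga4 to Itga5 is highest in vehicle cells.

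Other integrin chains were mostly low. Of 17 listed, 6 could be tested, and the other 11 averaged at most 0.264 CPM over the libraries. Itga9, an α chain that pairs with β1, had 20.7 ± 1.95 CPM in Torin-2 cells, 51.8 ± 11.4 CPM in rapamycin cells and 59.2 ± 4.00 CPM in vehicle cells (SD, n = 3 each). It fell with Torin-2 against vehicle (log2 fold change -1.51, edgeR adjusted p = 1.69e-06) and against rapamycin (-1.32, edgeR adjusted p = 1.53e-05), and rapamycin against vehicle gave -0.19 (edgeR adjusted p = 0.253). Itga6, a laminin receptor chain, had 209 ± 25.4 CPM in Torin-2 cells, 261 ± 41.3 CPM in rapamycin cells and 273 ± 18.7 CPM in vehicle cells, and fell with Torin-2 against vehicle (-0.39, edgeR adjusted p = 0.0099). Torin-2 against rapamycin gave -0.32 for Itga6 (edgeR adjusted p = 0.0349), a call lost with library totals alone (0.0947) and without Torin-2 replicate 3 (0.139), rapamycin replicate 1 (0.139) or rapamycin replicate 2 (0.102).

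Itgb7, the partner of α4 in gut-homing lymphocytes, had 21.5 ± 2.18 CPM in Torin-2 cells, 36.6 ± 5.67 CPM in rapamycin cells and 24.5 ± 5.13 CPM in vehicle cells. It rose with rapamycin against vehicle (log2 fold change 0.58, edgeR adjusted p = 0.00598) and was lower with Torin-2 than with rapamycin (-0.77, edgeR adjusted p = 0.00119). Its Torin-2 and vehicle libraries overlapped. Itga8 averaged 4.33 ± 1.18, 4.84 ± 0.771 and 3.44 ± 0.955 CPM in Torin-2, rapamycin and vehicle cells and passed in no comparison. Itga3 and Itga11 averaged under 1 CPM in every group and passed in none. With the replicate number as a block, Itga3 passed against vehicle with Torin-2 (log2 fold change 1.63, edgeR adjusted p = 0.00932) and with rapamycin (2.05, 0.00243). Itga11 did so with rapamycin against vehicle (1.65, 0.00598) and in Torin-2 against rapamycin (-1.51, 0.0112). Both genes also passed in some fits without replicate 3, their lowest library in each group.

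Integrins switch between a low-affinity and a high-affinity state when talin and kindlin bind the β tail, a step driven by the GTPase Rap1 and its adaptors. Of 20 listed activation genes 17 could be tested. In Torin-2 against vehicle 3 were higher and 7 lower (median log2 fold change -0.16), in rapamycin against vehicle 5 were higher and 4 lower (0.15), and in Torin-2 against rapamycin 3 were higher and 9 lower (-0.22), beside medians over all genes of -0.01, 0.00 and 0.00. The shares over all genes tested were 32.5% higher and 32.9% lower, 24.6% and 26.2%, and 24.2% and 24.1%, in that order. With the replicate block the counts higher were 5, 9 and 5 in those comparisons. In Torin-2 against rapamycin, 1 was higher without Torin-2 replicate 1 or rapamycin replicate 2, and 5 were lower without Torin-2 replicate 3.

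Rap1b, a Rap1 GTPase, fell to 411 ± 11.5 CPM in Torin-2 cells and 567 ± 22.9 CPM in rapamycin cells, against 677 ± 32.9 CPM in vehicle cells (log2 fold change -0.72, edgeR adjusted p = 3.81e-07, and -0.26, edgeR adjusted p = 0.00257). Apbb1ip, the adaptor RIAM that brings Rap1 to talin, had 165 ± 2.89 CPM in Torin-2 cells, 218 ± 10.0 CPM in rapamycin cells and 135 ± 14.8 CPM in vehicle cells, and rose with Torin-2 (0.28, edgeR adjusted p = 0.00505) and with rapamycin (0.69, edgeR adjusted p = 1.65e-05). Fermt3, the kindlin of blood cells, fell with Torin-2 against vehicle, at 218 ± 7.63 against 281 ± 20.0 CPM (-0.37, edgeR adjusted p = 0.000154), and was lower with Torin-2 than with rapamycin (-0.32, edgeR adjusted p = 0.000803). The adaptor Skap2 rose with Torin-2 (169 ± 7.26 against 108 ± 7.01 CPM in vehicle cells, 0.64, edgeR adjusted p = 2.42e-06) and with rapamycin (133 ± 5.98 CPM, 0.30, edgeR adjusted p = 0.00173). Fyb (ADAP), which works with SKAP proteins, rose with rapamycin against vehicle (108 ± 10.9 against 63.9 ± 12.6 CPM, 0.76, edgeR adjusted p = 0.000354) and was lower with Torin-2 than with rapamycin (-0.74, edgeR adjusted p = 0.000428). Its direction with rapamycin was that of 7 of the 10 members and of 24.6% of all genes tested.

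Behind the tail, a plaque of adaptor proteins and kinases ties the integrin to actin. All 32 listed plaque and signalling genes could be tested. With Torin-2 against vehicle 17 were higher and 6 lower (median log2 fold change 0.26), with rapamycin against vehicle 18 were higher and 2 lower (0.30), and in Torin-2 against rapamycin 8 were higher and 8 lower (-0.04). Over all genes tested, 32.5% were higher and 32.9% lower in Torin-2 against vehicle, 24.6% and 26.2% in rapamycin against vehicle, and 24.2% and 24.1% in Torin-2 against rapamycin. The last count of lower genes was 5 without rapamycin replicate 2 and 5 with library totals alone.

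Zyxin (Zyx), found at tensed adhesions, had 139 ± 3.54 CPM in Torin-2 cells, 94.7 ± 10.1 CPM in rapamycin cells and 47.6 ± 1.25 CPM in vehicle cells, and rose with Torin-2 (log2 fold change 1.55, edgeR adjusted p = 7.27e-09) and with rapamycin (0.99, edgeR adjusted p = 1.22e-06). Filamin A (Flna), an actin crosslinker that binds β tails, had 1586 ± 79.0 CPM in Torin-2 cells, 1122 ± 89.6 CPM in rapamycin cells and 641 ± 44.7 CPM in vehicle cells. It rose with Torin-2 (1.31, edgeR adjusted p = 3.20e-08) and with rapamycin (0.81, edgeR adjusted p = 5.69e-06), and was higher with Torin-2 than with rapamycin (0.50, edgeR adjusted p = 0.000174). Src, a kinase that acts beside β3 integrins, had 8.66, 5.85 and 6.33 CPM in Torin-2 cells, 1.61, 2.27 and 1.00 CPM in rapamycin cells, and 1.67, 1.21 and 1.25 CPM in vehicle cells. It rose with Torin-2 against vehicle (2.32, edgeR adjusted p = 1.49e-05) and was higher with Torin-2 than with rapamycin (2.08, edgeR adjusted p = 7.91e-05).

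The myeloid Src-family kinase Fgr instead rose with rapamycin against vehicle (28.6 ± 6.75 against 8.99 ± 1.80 CPM, log2 fold change 1.67, edgeR adjusted p = 4.55e-05) and was lower with Torin-2 than with rapamycin (-1.41, edgeR adjusted p = 0.000139). Parvg, the parvin of blood cells, fell to 19.1 ± 2.68 CPM in Torin-2 cells and 23.2 ± 0.983 CPM in rapamycin cells, against 74.8 ± 0.727 CPM in vehicle cells (-1.96, edgeR adjusted p = 5.17e-09, and -1.69, edgeR adjusted p = 9.09e-08). It shared this direction with Itga4. Parvb fell with Torin-2 against vehicle (67.8 ± 4.06 against 119 ± 5.08 CPM, -0.82, edgeR adjusted p = 2.66e-07) and was lower with Torin-2 than with rapamycin (-0.76, edgeR adjusted p = 1.71e-06).

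Among genes for integrin ligands, 22 of 30 could be tested. With Torin-2 against vehicle 4 were higher and 6 lower (median log2 fold change 0.00), with rapamycin against vehicle 8 were higher and 3 lower (0.71), and in Torin-2 against rapamycin 2 were higher and 7 lower (-0.59). Among all genes tested the shares were 32.5% higher and 32.9% lower, 24.6% and 26.2%, and 24.2% and 24.1%, in that order. The replicate block moved the counts of ligand genes most of all lists, to 7 higher with Torin-2 against vehicle, 13 higher and 5 lower with rapamycin against vehicle, and 15 lower in Torin-2 against rapamycin. Without rapamycin replicate 3, 12 were lower in the last comparison. Without replicate 3 of every group, 13 were higher with rapamycin against vehicle and 13 lower in Torin-2 against rapamycin, and with no filter on low counts 13 and 14.

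Fibronectin (Fn1), ligand of α5β1 and α4β1, had 109, 93.8 and 33.1 CPM in Torin-2 cells, 219, 148 and 49.0 CPM in rapamycin cells, and 34.0, 19.5 and 13.5 CPM in vehicle cells. Replicate 3 was the lowest of each group, as it was for the fibroblast markers given above, whose part in Fn1's values was not tested. Fn1 rose with Torin-2 (log2 fold change 1.80, edgeR adjusted p = 0.0116) and with rapamycin (2.62, edgeR adjusted p = 0.00188) against vehicle. Thrombospondin 1 (Thbs1) rose with Torin-2 (289 ± 49.3 against 162 ± 10.8 CPM in vehicle cells, 0.83, edgeR adjusted p = 0.000177) and with rapamycin (273 ± 51.7 CPM, 0.75, edgeR adjusted p = 0.00072). Replicate 3 was the lowest of each group for Thbs1 too, and for Itga6, Zyx, Flna, Fgr, Dab2 and Snx17. The part of the fibroblast markers in these genes' values was not tested. The collagen-binding Tgfbi also rose with both compounds (1.33, edgeR adjusted p = 1.67e-06, with Torin-2 and 1.75, edgeR adjusted p = 8.28e-07, with rapamycin).

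Icam1, ligand of αLβ2 and αMβ2, fell to 14.7 ± 1.57 CPM in Torin-2 cells and 18.2 ± 3.01 CPM in rapamycin cells, against 36.4 ± 1.94 CPM in vehicle cells (log2 fold change -1.31, edgeR adjusted p = 1.35e-06, and -1.004, edgeR adjusted p = 3.14e-05). Osteopontin (Spp1), a ligand of αvβ3, had 2439, 2810 and 1784 CPM in Torin-2 cells, 4648, 4613 and 3150.3 CPM in rapamycin cells, and 5346, 4972 and 5368 CPM in vehicle cells. It fell with Torin-2 against vehicle (-1.16, edgeR adjusted p = 6.46e-05) and was lower with Torin-2 than with rapamycin (-0.82, edgeR adjusted p = 0.00153), whereas Itgb3 rose in both comparisons. Mfge8, which bridges apoptotic cells to αv integrins, fell with Torin-2 (365 ± 14.6 against 541 ± 96.1 CPM in vehicle cells, -0.57, edgeR adjusted p = 0.000972) and with rapamycin (273 ± 30.8 CPM, -0.99, edgeR adjusted p = 3.26e-05), and was higher with Torin-2 than with rapamycin (0.42, edgeR adjusted p = 0.0101).

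Integrins also sit beside tetraspanins and other membrane partners, and all 13 listed could be tested. With Torin-2 against vehicle 2 were higher and 7 lower (median log2 fold change -0.19), with rapamycin against vehicle 4 were higher and 2 lower (-0.02), and in Torin-2 against rapamycin 3 were higher and 6 lower (-0.22). All genes tested gave shares of 32.5% higher and 32.9% lower, 24.6% and 26.2%, and 24.2% and 24.1%, in that order. In the last comparison 1 partner gene was higher without Torin-2 replicate 2, Torin-2 replicate 3, rapamycin replicate 1 or rapamycin replicate 2, and in rapamycin against vehicle 4 were lower without rapamycin replicate 3 or with library totals alone. Cd47, the integrin-associated protein named for its link with β3, fell with Torin-2 against vehicle (135 ± 1.54 against 224 ± 1.71 CPM, -0.73, edgeR adjusted p = 8.55e-07) and was lower with Torin-2 than with rapamycin (-0.60, edgeR adjusted p = 1.16e-05). The tetraspanin Cd9 rose with Torin-2 (1098 ± 95.8 against 835 ± 45.2 CPM in vehicle cells, 0.40, edgeR adjusted p = 0.000357) and with rapamycin (1117 ± 37.8 CPM, 0.42, edgeR adjusted p = 0.000415). Cd37 did likewise (0.62, edgeR adjusted p = 4.80e-06, and 0.68, edgeR adjusted p = 7.52e-06).

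Endocytosis and recycling set how much integrin stays at the surface, and all 12 listed trafficking genes could be tested. With Torin-2 against vehicle 5 were higher and 6 lower (median log2 fold change -0.11), with rapamycin against vehicle 7 were higher and 1 lower (0.30), and in Torin-2 against rapamycin 2 were higher and 7 lower (-0.24). The shares of all genes tested were 32.5% higher and 32.9% lower, 24.6% and 26.2%, and 24.2% and 24.1%, in that order. With library totals alone 2 of the 12 were lower in rapamycin against vehicle and 4 higher in Torin-2 against rapamycin. Dab2, a clathrin adaptor for integrin endocytosis, had 90.8 ± 8.48 CPM in Torin-2 cells, 233 ± 32.7 CPM in rapamycin cells and 125 ± 7.63 CPM in vehicle cells. It fell with Torin-2 against vehicle (-0.46, edgeR adjusted p = 0.00172), rose with rapamycin against vehicle (0.90, edgeR adjusted p = 2.12e-05) and was lower with Torin-2 than with rapamycin (-1.36, edgeR adjusted p = 1.06e-06). The adaptor Numb rose with Torin-2 (60.6 ± 1.72 against 31.8 ± 0.265 CPM in vehicle cells, 0.93, edgeR adjusted p = 6.87e-08) and with rapamycin (46.3 ± 2.35 CPM, 0.54, edgeR adjusted p = 1.98e-05). Snx17, which recycles β1 integrins away from lysosomes, fell with Torin-2 (112 ± 4.19 against 178 ± 3.69 CPM in vehicle cells, -0.67, edgeR adjusted p = 3.95e-07) and with rapamycin (133 ± 5.06 CPM, -0.42, edgeR adjusted p = 4.81e-05).

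**Figure D5:**
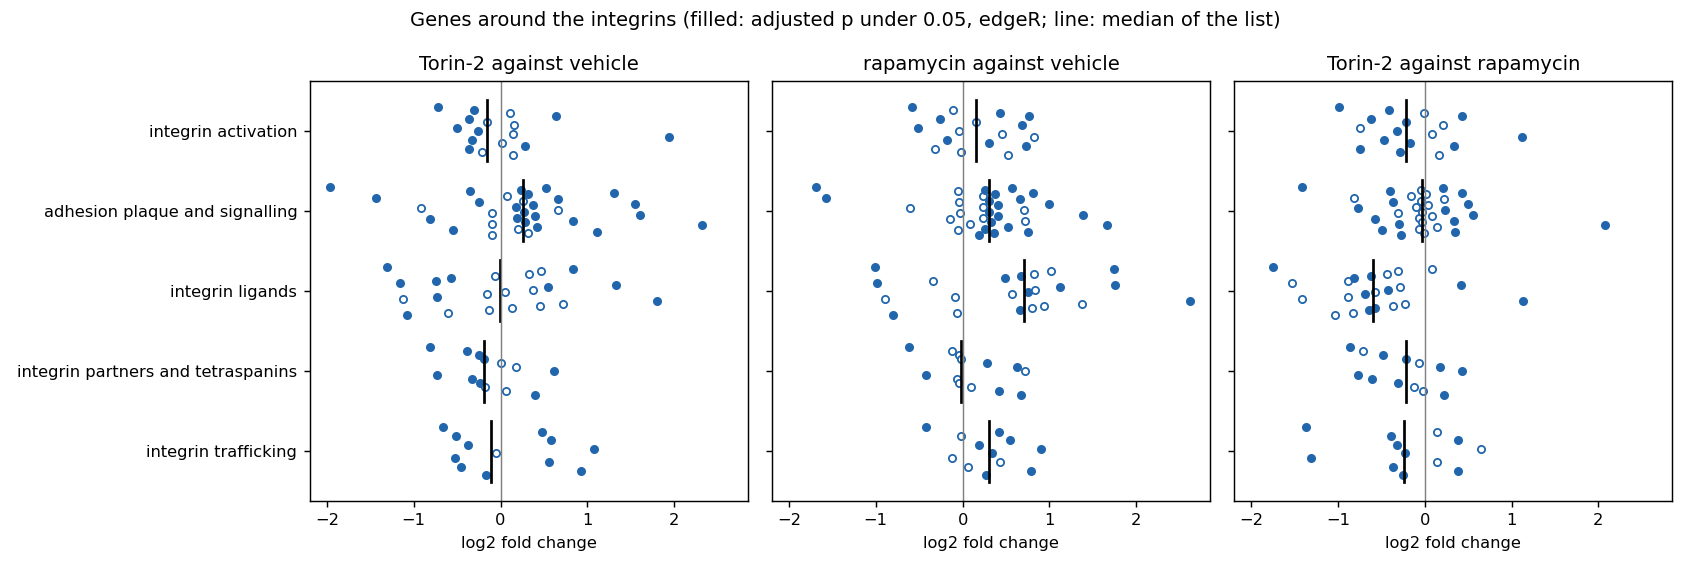
Log2 fold changes of the tested genes of each integrin-related list, a point for a gene (filled past an edgeR adjusted p of 0.05, open otherwise) and a line for the list's median, in the 2 comparisons with vehicle and between the compounds. The median of the plaque and signalling genes lies above 0 in both comparisons with vehicle (0.26 and 0.30) and near 0 between the compounds (-0.04).

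Among 8696 genes with at least 5 CPM on average, those whose log2 CPM followed a member most closely over the 9 libraries were looked up as a description. The libraries fall into 3 groups, so such a correlation mostly records a shared order of the groups, and it carries no test. Itgb2 was closest to Pid1 (Pearson r = 0.997), Pltp (0.994) and Enc1 (0.994). Itgb3 was closest to Gnptab (0.994), Slc29a3 (0.993) and Foxred2 (0.981), and Itga4 to Ssbp4 (0.991), Tmem104 (0.988) and Dcxr (0.987). Itga5 was closest to Hip1 (0.994) and Itgal to Lrrfip1 (0.982). For Itgb5 the closest gene was itself an integrin, Itgal (0.978).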

How the data were processed

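The authors deposited unnormalised gene counts for the 9 samples. The submitters' processing notes name bcl2fastq, FastQC, STAR 2.5.2a and the builds GRCm38.p6 and mm10, and the labels give NuGEN Universal Plus mRNA-seq libraries read as paired ends of 100 bp. Neither the compounds' doses nor the counting tool, its strand setting and its annotation are given in these sources, so genes that overlap may share reads. Positions were looked up in GENCODE M21 (GRCm38), which holds 53237 of the 53342 identifiers and also gave merged exon lengths and overlaps. Among the listed genes named, Cd9, Fermt3 and Snx17 share exon bases on the opposite strand with another gene of at least 1 CPM.

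The counts went, with edgeR 4.0.16 in R 4.3.3, into 1 quasi-likelihood fit of all 9 libraries in 3 groups without covariates, after filterByExpr and TMM scaling (factors 0.955 to 1.05, common biological coefficient of variation 9.96%). The SE of a log2 fold change was derived from the test, as its size over the square root of the F statistic. The 12511 genes tested held 99.92% to 99.94% of each library's counts. No spike-in was used here, so changes are relative to the other genes. The members and lists were chosen with earlier results of these data known. The text names all 10 members and every other chain tested. From each list it names some of up to 3 genes that rose and 3 that fell most per comparison, among those past the threshold with at least 1 CPM on average. Some genes that these rules take are not reported here. Replicate numbers were found to pair the libraries across groups: deviations from the group means correlated at 0.168 to 0.5 in the 9 same-numbered pairs, against -0.358 to 0.162 in the 18 others. The alternatives were DESeq2 1.42.0 (size factors and Wald test), limma 3.58.1 (voom), library totals alone, 2 other filters on low counts, a replicate block, fits of the 2 groups compared, and leaving libraries out. The exon length of Itgam was an alternative chosen after seeing the data. Ratios were tested by exact permutation over libraries, 2-sided, without the pairing by replicate number. The fit was tested on simulated data in which few genes changed and all had the same dispersion. Change as wide as in these data was not simulated.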

Additional observations from a re-analysis of the deposited data

How the results depend on the processing

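Over the alternatives, 540 values of the 10 integrin genes were recomputed, and 527 kept their direction and their side of the threshold. Itgal (Torin-2 against vehicle) lost its call in 4 of these, Itgav (Torin-2 against rapamycin) in 5, and Itgam (Torin-2 against vehicle) gained one in 2, without Torin-2 replicate 3 and without replicate 3 of every group (log2 fold change 0.26, edgeR adjusted p = 0.00998). Itgax, rapamycin against vehicle, turned to -0.074 without rapamycin replicate 1 and to -0.060 without vehicle replicate 2, and ran up to 0.38 without other libraries. Among other chains that did not pass, Itga11 (Torin-2 against vehicle) turned to -0.17 with limma voom and ran from -0.52 to 0.71 without 1 library. Itga6 (rapamycin against vehicle) turned to 0.027 without replicate 3 of every group and ran from -0.16 to 0.056 without 1 library. In Torin-2 against rapamycin, leaving out 1 library gave -1.15 to 0.20 for Itga3 and -0.37 to 0.032 for Itga8. The causes were not tested.

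The number of integrin genes called was 6 to 8 for Torin-2 against vehicle, 9 in all fits for rapamycin against vehicle, and 7 to 8 for Torin-2 against rapamycin. With the replicate block 7, 9 and 8 were called, no member's call changed, and all genes called came to 8713, 7003 and 6831 in place of 8182, 6351 and 6035. With library totals alone, 37.4% of all calls in rapamycin against vehicle were higher, in place of 48.5%, and the median of all genes moved to -0.09.

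Without 1 library, the ratio difference of Itgal to Itgam ran from -0.23 to -0.012 for rapamycin against vehicle and from -0.45 to -0.23 for Torin-2 against rapamycin, and that of Itgax to Itgam from -0.75 to -0.35 for rapamycin against vehicle. Itgb3 to Itgb5 ran from 1.02 to 1.30 for Torin-2 against vehicle, and Itga4 to Itga5 from -1.42 to -1.33 for rapamycin against vehicle. Low-count chains such as Itga3 and Itga11 are measured with wide error. For listed genes that the naming rule picked for large changes that passed, 1878 values of calls were recomputed, of which 1824 kept direction and call, 54 lost the call and 0 turned.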
